A study of Mus musculus with 26 samples.

Results

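The miR-34 family was followed through small RNA sequencing of CA1, the hippocampal field that is central to memory of place and context. Its members were chosen by name: mmu-miR-34a-5p, both arms of miR-34b (mmu-miR-34b-5p and mmu-miR-34b-3p), both arms of miR-34c (mmu-miR-34c-5p and mmu-miR-34c-3p), and mmu-miR-449a-5p, which shares its seed with miR-34a-5p. The species prefix is left out from here on. They are 6 of the 1915 miRNAs in the authors' count table, and 5 of the 6 passed the filter on low counts that left 605 miRNAs for testing. The family was picked with an earlier result of the Vorinostat comparison known, so its differences in the comparisons with Vorinostat are given as a description.

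There were 10 libraries from transgenic mice given Vorinostat, 7 from transgenic mice given vehicle and 9 from wild type littermates given vehicle. The transgenic mice were CamkdeltaC animals, which carry a form of the calcium/calmodulin-dependent kinase II delta known from heart failure, and Vorinostat (SAHA) is an inhibitor of histone deacetylases. Treatment was in the drinking water for 4 weeks from an age of 2 months, both sexes were used, and CA1 was taken at 3 months. The sources used here name neither the strain nor the promoter of the transgene, and no group of wild type mice on Vorinostat was analysed here. Whether every library stands for its own animal is not said in the labels. The p-values therefore reflect only how much these libraries scatter, and some of that may be technical.

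MicroRNAs are short RNAs that guide repression of messenger RNAs, and which messengers they pair with depends largely on the seed, bases 2 to 8 from the 5′ end. miR-34a is made from a gene of its own and is best known as a direct target of the tumour suppressor p53, and it is present in neurons. miR-34b and miR-34c are cut from a common transcript, are abundant in testis and in multiciliated epithelia, and act together with the miR-449 cluster in the formation of motile cilia. miR-34c has also been studied in the mouse hippocampus in relation to memory.

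The seeds show which members share the bases that pair with targets. The sequences below are the RefSeq mature forms on GRCm38.p6, 5′ to 3′, with the seed in capitals.

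miR-34a-5p: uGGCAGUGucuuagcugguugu
miR-34b-5p: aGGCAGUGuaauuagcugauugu
miR-449a-5p: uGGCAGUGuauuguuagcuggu
miR-34b-3p: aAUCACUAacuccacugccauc
miR-34c-3p: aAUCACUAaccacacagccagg

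Among the 1679 mature mouse miRNAs of that table, the seed GGCAGUG was held by 4 entries, miR-34a-5p, miR-34b-5p, miR-449a-5p and miR-449c-5p. The seed AUCACUA of the 3p arms was held by 2, miR-34b-3p and miR-34c-3p. The sequence of miR-34c-5p was not compared here, so these counts say nothing of its seed. The same holds for any other miRNA of the count table that is not among the 1679, so more entries may share these seeds. Counted from 1 at the 5′ end, miR-34b-3p and miR-34c-3p were identical over their first 10 bases and differed over their 22 bases by U11C, C12A, U16A, U21G and C22G (miR-34b-3p base first). miR-34a-5p and miR-449a-5p were identical over their first 9 bases and differed at 7 of 22 positions. No member had the same counts in every library as another table entry. Since the sources used here name no counting settings, whether reads of one member were assigned to another was not tested.

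The hairpin of miR-34b, from which both of its arms are cut, is shown with the mature arms in capitals because the balance of these arms is described further on.

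Mir34b: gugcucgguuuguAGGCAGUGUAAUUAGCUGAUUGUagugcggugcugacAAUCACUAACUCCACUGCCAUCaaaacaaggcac

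On GRCm38, Mir34b lies at chr9:51103562-51103645 and Mir34c at chr9:51103034-51103110, both on the minus strand with 451 bases between them. Both lie in an intron of the protein-coding gene Btg4, which is on the opposite strand. Mir34a lies at chr4:150068454-150068555 on the plus strand and overlaps no other annotated gene. Its nearest protein-coding gene, Gpr157, is 18810 bases away. Mir449a lies at chr13:113037534-113037624 on the plus strand, in an intron of Cdc20b on the same strand.

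Total miRNA counts per library, in units of 1e+06 counts (M), were 3.89 to 15.7 M with Vorinostat, 6.01 to 24.8 M in transgenic vehicle and 0.585 to 17.6 M in wild type vehicle. Wild type vehicle replicate 1, with 0.585 M, stood apart. It held 1 read of miR-34a-5p, 9 of miR-34c-5p, 6 of miR-34b-5p, 2 of miR-34b-3p and 0 of miR-34c-3p, a count that allows up to 5.13 reads per 1e+06 counts. Its score on the first principal component of the other tested miRNAs, each taken relative to its group mean, was -42.0, followed by -20.6 for Vorinostat replicate 8 with 3.89 M counts, against -10.4 to 12.01 in the other libraries. Results that rest on these libraries are given with and without them.

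The member with the highest mean CPM was miR-34c-5p, the main arm of miR-34c, at 62.2 ± 28.7 CPM (counts per 1e+06, scaled with TMM factors, SD over 26 libraries). Its lowest, median and highest values were 35.9, 54.6 and 81.8 CPM with Vorinostat, 37.6, 77.1 and 164 CPM in transgenic vehicle, and 18.7, 52.7 and 94.2 CPM in wild type vehicle. The 3 groups overlapped, and the highest value of all, 164 CPM, came from transgenic vehicle replicate 9.

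The p53 target miR-34a-5p followed at 28.8 ± 16.2 CPM (SD, n = 26). Its lowest, median and highest values were 5.72, 30.1 and 55.9 CPM with Vorinostat, 14.5, 32.8 and 65.2 CPM in transgenic vehicle, and 2.08, 24.8 and 35.4 CPM in wild type vehicle. The groups overlapped here too, with the lowest value in wild type vehicle replicate 1 and the highest in transgenic vehicle replicate 6.

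The arms of miR-34b were scarcer. miR-34b-5p lay at 8.11, 10.8 and 17.6 CPM (lowest, median, highest) with Vorinostat, 6.88, 16.9 and 30.5 CPM in transgenic vehicle, and 7.44, 12.5 and 18.2 CPM in wild type vehicle. miR-34b-3p, the arm with the other seed, lay at 1.59, 3.95 and 8.93 CPM with Vorinostat, 4.37, 8.03 and 9.82 CPM in transgenic vehicle, and 3.21, 6.48 and 11.97 CPM in wild type vehicle. For both arms the groups overlapped, and 5 of the 10 Vorinostat libraries lay below the lowest transgenic vehicle library for miR-34b-3p.

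miR-34c-3p, the minor arm of miR-34c, averaged 0.774 ± 0.486 CPM with Vorinostat, 1.35 ± 0.885 CPM in transgenic vehicle and 1.05 ± 0.747 CPM in wild type vehicle (mean ± SD, n = 10, 7 and 9), with overlapping groups. It had 333 reads over all libraries, so its counting error is large.

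**Figure D1:**
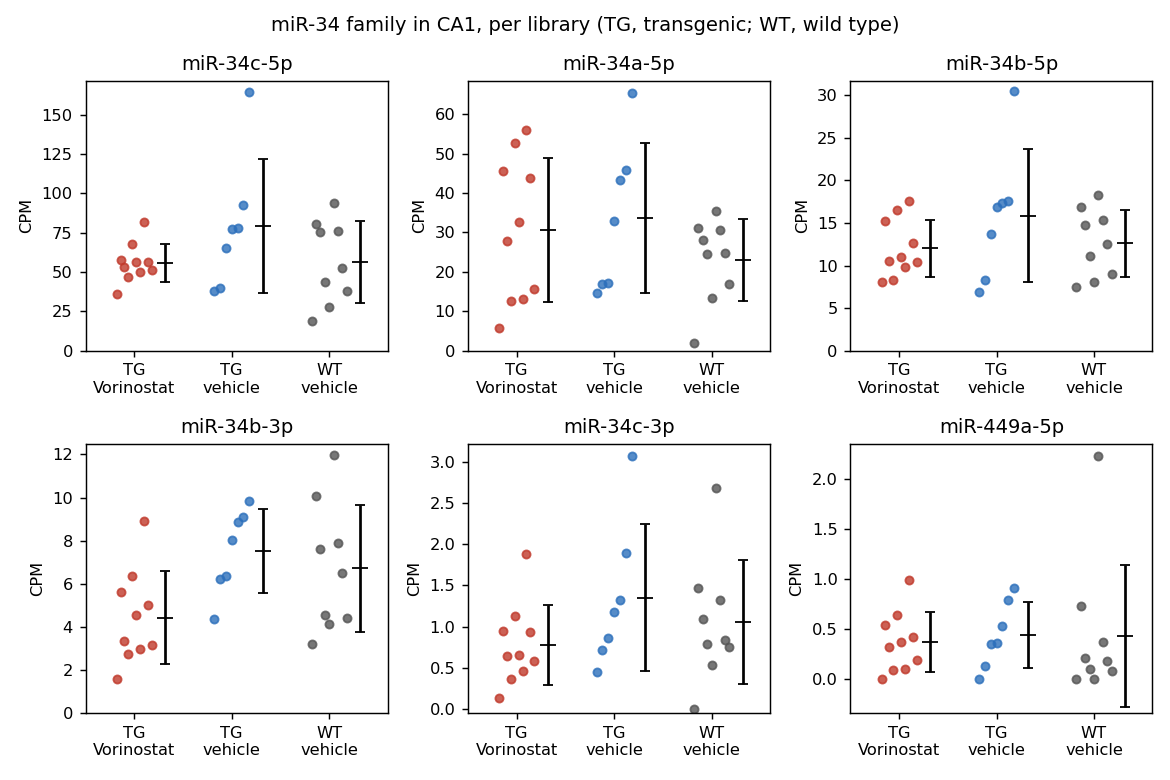
CPM of each member in each library (points), with the mean and SD of each group beside the points, for transgenic mice on Vorinostat, transgenic mice on vehicle and wild type mice on vehicle. Each panel has its own linear axis in CPM. The groups overlap in all 6 panels, and miR-34c-5p reaches 164 CPM in 1 transgenic vehicle library.

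The order of levels was the same in most libraries but not in all. miR-34c-5p exceeded miR-34a-5p in 23 of 26 libraries, the exceptions being Vorinostat replicate 6, transgenic vehicle replicate 6 and wild type vehicle replicate 5. miR-34a-5p exceeded miR-34b-5p in 21 of 26. miR-34b-5p exceeded miR-34b-3p, and miR-34b-3p exceeded miR-34c-3p, in 26 of 26. miR-34c-3p exceeded miR-449a-5p in 21 of 26. Among the 605 tested miRNAs, ranked by mean CPM, miR-34c-5p stood at 199, miR-34a-5p at 258, miR-34b-5p at 312, miR-34b-3p at 380 and miR-34c-3p at 548. Mature miRNAs are of nearly equal length, but ligation and amplification differ with sequence. The order between miRNAs is therefore one of reads and need not be that of their amounts.

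Shares were taken of the summed reads of miR-34a-5p, miR-34b-5p, miR-34c-5p, miR-449a-5p and miR-449c-5p. Of these, miR-34c-5p supplied 58.4 ± 11.1% with Vorinostat, 59.6 ± 14.4% in transgenic vehicle and 59.2 ± 10.3% in wild type vehicle (SD, n = 10, 7 and 9). miR-34a-5p supplied 28.8 ± 12.99% with Vorinostat, 28.02 ± 16.2% in transgenic vehicle and 24.97 ± 12.7% in wild type vehicle. In hippocampal CA1 of these mice miR-34c-5p therefore supplied the larger part of these 5p reads in most libraries, with a range over libraries of 33.5 to 77.5%. These are shares of reads, and the amounts of the miRNAs in the tissue were not tested.

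miR-449a-5p was at the edge of detection. It had 133 reads in all, between 0 and 21 in a library, and 22 of 26 libraries held at least 1. Pooled over libraries it stood at 0.379 reads per 1e+06 counts with Vorinostat (95% exact Poisson interval 0.273 to 0.513), 0.497 in transgenic vehicle (0.364 to 0.663) and 0.462 in wild type vehicle (0.337 to 0.618). These intervals overlap, and they cover counting error only. Wild type vehicle replicate 5 alone supplied 21 of the 45 wild type reads.

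The rest of the miR-449 cluster, which marks multiciliated cells, was nearly without reads. Over all libraries miR-449c-5p had 4 reads and miR-449b had 2, while miR-449a-3p and miR-449c-3p had 0, which allows up to 0.00997 reads per 1e+06 counts. The summed level of the 5 multiciliated markers lay between 0 and 0.984 CPM with Vorinostat, 0 and 1.06 CPM in transgenic vehicle, and 0 and 2.23 CPM in wild type vehicle. miR-34c-5p was thus found at 18.7 to 164 CPM in libraries where this marker list summed to at most 2.23 CPM. In bulk tissue fewer cells of a type and less RNA per cell cannot be told apart, so which cells carry miR-34b and miR-34c was not tested.

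The choroid plexus and the ventricle lining border the hippocampus. The 10 miRNAs listed as their markers summed to well above 0, and 8 of the 10 passed the filter. Whether the reads of these 10 miRNAs came from those tissues was not tested. The summed level of these markers was 465.5 to 825 CPM with Vorinostat, 517 to 759 CPM in transgenic vehicle and 468 to 775 CPM in wild type vehicle, led by miR-204-5p at 433 ± 74.5 CPM and miR-200b-3p at 89.0 ± 56.1 CPM (SD, n = 26). The neuron list, led by miR-128-3p and miR-9-5p, summed to 360856 to 516104 CPM with Vorinostat, 347894 to 432123 CPM in transgenic vehicle and 209491 to 425225 CPM in wild type vehicle. Those 2 miRNAs averaged 229308 and 126121 CPM over 26 libraries, so the sum is mostly theirs. With Vorinostat against transgenic vehicle, 3 of the 8 neuron markers were higher and 5 lower, and none passed in edgeR. All 10 choroid plexus and ependyma markers and all 8 neuron markers had reads in each group.

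miR-34b and miR-34c varied together from library to library. With each library taken relative to its group mean on the log2(CPM + 1) scale, miR-34b-5p and miR-34c-5p had a Pearson r of 0.816 and a Spearman rho of 0.880 over 26 libraries (permutation p = 1e-05 for each, the smallest that 100000 permutations within groups can give; adjusted p = 0.0001 over the 10 pairs of tested members). The permutations took libraries as independent and did not keep same-numbered transgenic libraries together, although these deviated together. The permutation p-values of all correlations given here may therefore be too small. Without wild type vehicle replicate 1, the r of both main arms was 0.951, and without the 2 libraries farthest from the median of miR-34b-5p it was 0.754. Within sequencing lanes r was 0.704 in L001 (n = 13, permutation, adjusted p = 0.232), 0.963 in L001 without wild type vehicle replicate 1 (n = 12, permutation, adjusted p = 0.0013) and 0.957 in L002 (n = 13, permutation, adjusted p = 0.0027).

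The minor arms followed the same pattern less closely. miR-34b-3p had an r of 0.640 with miR-34b-5p (rho = 0.677) and 0.658 with miR-34c-5p (rho = 0.656), with permutation p = 0.00022 and 0.0001 for r, adjusted p = 0.000733 and 0.0005, and 0.00032 and 0.00053 for rho. miR-34c-3p had an r of 0.695 with miR-34c-5p (rho = 0.662), with permutation p = 0.00038 and 0.00089 and adjusted p = 0.00095 for r. Its r with miR-34b-5p was 0.543 (rho = 0.581; permutation p = 0.00781 and 0.00426, adjusted p = 0.0156 for r), and this fell to 0.415, past the threshold no more, without the 2 libraries farthest from the median (adjusted p = 0.12). With a pseudocount of 0.1 it was 0.419 and did not pass either (adjusted p = 0.0643). Both 3p arms together gave an r of 0.286 (rho = 0.360; permutation p = 0.17 and 0.0789, adjusted p = 0.283 for r). With a pseudocount of 1, 5 of the 10 pairs passed, all of them within the miR-34b and miR-34c unit. In lane L002 the same 5 pairs passed, while in L001 none did and, without wild type vehicle replicate 1, only the pair of main arms did.

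None of the 4 pairs of miR-34a-5p with the unit passed. Its r was 0.255 with miR-34c-5p (rho = 0.0674), 0.0437 with miR-34b-5p (rho = 0.0475), 0.284 with miR-34b-3p (rho = 0.185) and 0.130 with miR-34c-3p (rho = 0.0516). In this order of partners, permutation p for r was 0.233, 0.832, 0.198 and 0.534 over 26 libraries, for rho 0.738, 0.824, 0.383 and 0.809, and the adjusted p for r was 0.291, 0.832, 0.283 and 0.594. Without wild type vehicle replicate 1 the r with miR-34c-5p was -0.0547, and without Vorinostat replicate 8 as well, the 2 libraries farthest from the median of miR-34a-5p, it was -0.220. Within lanes it was 0.705 in L001, 0.151 in L001 without wild type vehicle replicate 1 and -0.156 in L002 (permutation, adjusted p = 0.232, 0.806 and 0.832). That the relation of miR-34c-5p with miR-34b-5p is stronger than with miR-34a-5p was not itself tested. Transgenic vehicle replicate 9, the highest library for miR-34c-5p, had 17.1 CPM of miR-34a-5p, near the low end of its group.

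**Figure D2:**
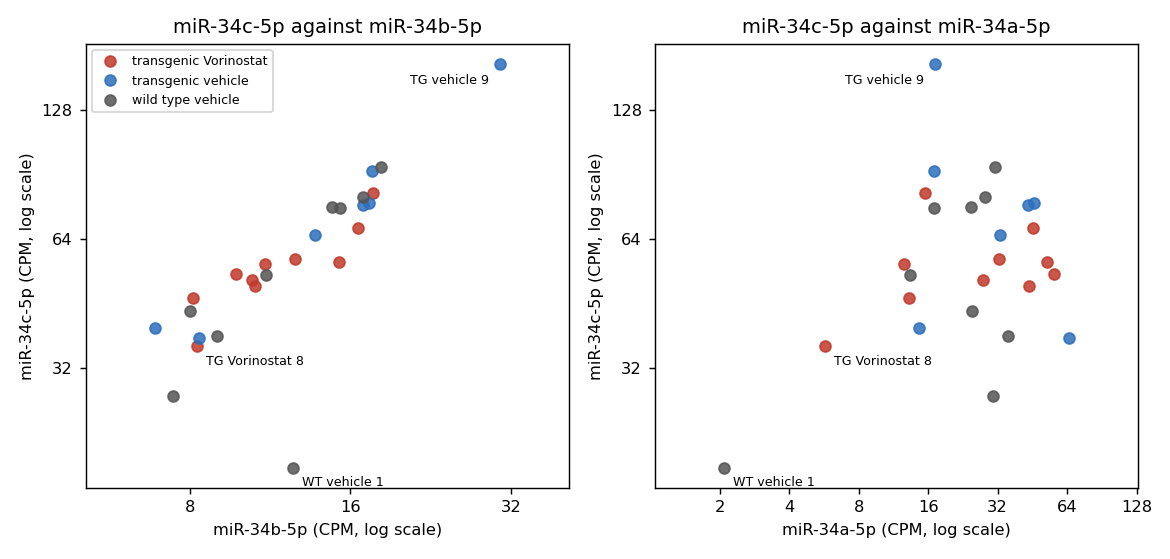
CPM of miR-34c-5p (y axis, log scale) against CPM of miR-34b-5p (left) and miR-34a-5p (right), both on log scales, 1 point per library, coloured by group. On the left the points follow a line apart from wild type vehicle replicate 1, whose counts were 9 and 6 reads. On the right they form no line.

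What miR-34a-5p followed was the first principal component, an axis that held 64.5% of the variance of the other 600 tested miRNAs after group means were removed. Its r with that component was 0.924 and its rho 0.752 (permutation p = 1e-05, the smallest the permutations can give, and 2e-05; adjusted p = 5e-05 over the 5 tested members). Without the 2 libraries farthest from the median of miR-34a-5p, r was 0.852. Within lanes it was 0.954 in L001 (permutation, adjusted p = 0.122), 0.637 in L001 without wild type vehicle replicate 1 (adjusted p = 0.485) and 0.939 in L002 (adjusted p = 0.00495). In L001 it did not pass with or without that library. For the other tested members r lay between 0.0749 and 0.364, and none passed (permutation, adjusted p from 0.181 to 0.721). How many of the other 600 miRNAs followed the component as closely was not counted, so nothing particular to miR-34a-5p is read from it. Both libraries lowest on the component had the fewest counts of their group, and the part of depth in the level of miR-34a-5p was not tested.

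The miRNAs most like miR-34a-5p over the 26 libraries, each relative to its group mean, were miR-592-5p (r = 0.957), miR-135a-5p (0.953), miR-194-5p (0.945), miR-379-3p (0.942) and miR-30b-5p (0.941). Of the 600 miRNAs that are not members, 232 had an r over 0.5 with it, and the median r of the 600 was 0.278. With both libraries named above left out, miR-592-5p remained at the head of the list with r = 0.912. Mir592 overlaps an exon of Grm8, a glutamate receptor gene, on the same strand. These libraries share depth and composition, so the values are a description.

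Those most like miR-34c-5p were miR-488-3p (r = 0.681), miR-551b-3p (0.634), miR-450a-5p (0.632), miR-9-5p (0.609) and miR-7689-3p (0.608). Only 40 of 600 had an r over 0.5, and 4 with both of those libraries left out, where miR-488-3p was again at the head with r = 0.614. Mir488 lies in an intron of Astn1, a gene of neuronal migration, on the same strand. No miRNA outside the family therefore reached the r of 0.816 between the main arms of miR-34c and miR-34b.

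Neither marker sum tracked the family beyond the threshold. miR-34c-5p had an r of -0.118 with the summed choroid plexus and ependyma markers (rho = -0.172; permutation p = 0.549 and 0.401; adjusted p = 0.877 over 10 relations) and of 0.495 with the summed neuron markers (rho = 0.269; permutation p = 0.022 and 0.177; adjusted p = 0.11). The second was 0.181 without wild type vehicle replicate 1. Within lane L001 it was 0.582, or -0.415 without that library, and in L002 it was 0.712 (permutation, adjusted p = 0.593, 0.667 and 0.134). miR-34a-5p had an r of 0.112 with the choroid plexus and ependyma sum (rho = 0.212; permutation p = 0.614 and 0.324; adjusted p = 0.877) and 0.308 with the neuron sum (rho = -0.161; permutation p = 0.142 and 0.436; adjusted p = 0.472). Without wild type vehicle replicate 1 the r with the neuron sum was -0.390, so its sign rests on that library.

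Ratios within a library do not depend on scaling. The log2 ratio of miR-34c-5p to miR-34b-5p, from reads plus 1, was 2.22 ± 0.186 with Vorinostat, 2.30 ± 0.144 in transgenic vehicle and 2.04 ± 0.598 in wild type vehicle (SD, n = 10, 7 and 9). Its medians were 2.22, 2.24 and 2.24 with Vorinostat, in transgenic vehicle and in wild type vehicle. Without wild type vehicle replicate 1, whose ratio was 0.515 from 9 and 6 reads, the wild type mean was 2.23 ± 0.182. Over those 25 libraries the unit thus kept a ratio of 4.74 on average, within a range of 1.87 to 2.51 on the log2 scale, while both levels moved several-fold. The sequence of miR-34c-5p was not compared with that of miR-34b-5p. Whether reads of one counted to the other contribute to this ratio, and to the r of both arms, was not tested.

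The ratio of miR-34c-5p to miR-34a-5p was far more variable. It was 1.14 ± 1.003 with Vorinostat, 1.28 ± 1.30 in transgenic vehicle and 1.33 ± 0.883 in wild type vehicle, from -0.79 in transgenic vehicle replicate 6 to 3.25 in transgenic vehicle replicate 9. Transgenic vehicle minus wild type vehicle was -0.05 (exact permutation test, two-sided, p = 0.927, n = 7 and 9). Within lanes this difference was -0.62 in L001 (p = 0.333) and 0.57 in L002 (p = 0.629, exact permutation tests), with opposite signs, and neither passed.

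The 5p arm of miR-34b exceeded the 3p arm in every library. The log2 ratio was 1.51 ± 0.524 with Vorinostat, 0.96 ± 0.458 in transgenic vehicle and 0.91 ± 0.410 in wild type vehicle. Transgenic vehicle minus wild type vehicle was 0.05 (exact permutation test, two-sided, p = 0.817). With Vorinostat the ratio was higher in 5 of the 7 pairs of same-numbered transgenic libraries and lower in 2, with a mean difference of 0.495 ± 0.795 (SD over 7 pairs), given as a description. For miR-34c the ratio of the arms was 6.14 ± 0.811 with Vorinostat, 5.82 ± 0.388 in transgenic vehicle and 5.37 ± 0.971 in wild type vehicle, and transgenic vehicle minus wild type vehicle was 0.45 (exact permutation test, two-sided, p = 0.304). Leaving out wild type vehicle replicate 1, which had 9 and 0 reads of these arms, the mean was 5.63 ± 0.635 in wild type vehicle and the difference 0.20 (exact permutation test, two-sided, p = 0.540). The difference was 0.31 without wild type vehicle replicate 2.

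**Figure D3:**
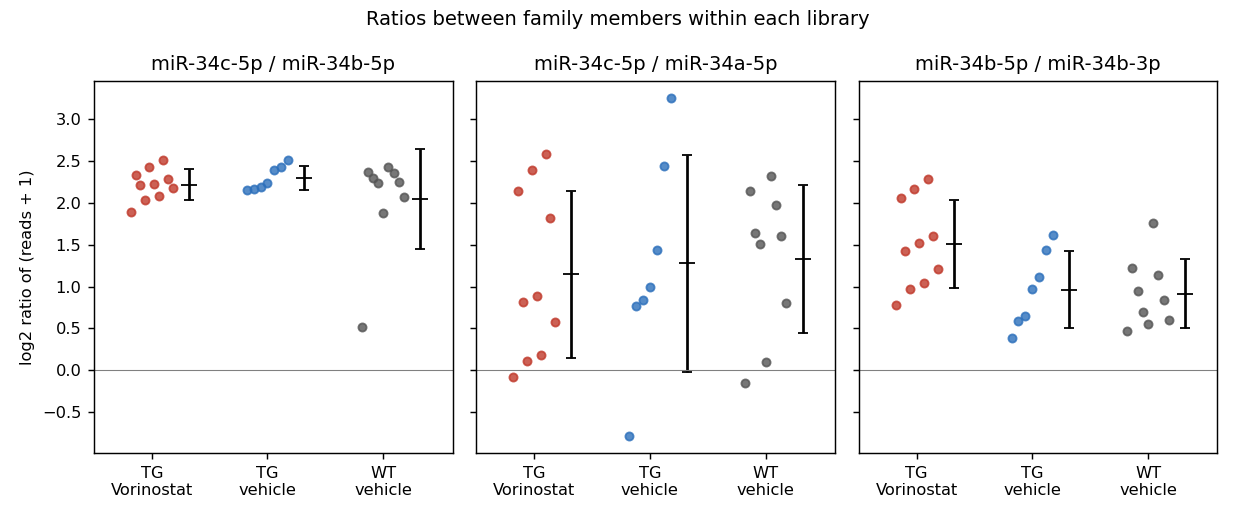
Log2 ratio of reads plus 1 between members within each library (points), with mean and SD per group, for transgenic Vorinostat, transgenic vehicle and wild type vehicle. The ratio of miR-34c-5p to miR-34b-5p stays near 2.2 apart from 1 wild type library at 0.515, whereas the ratio of miR-34c-5p to miR-34a-5p runs from -0.79 to 3.25.

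The genotype comparison, transgenic vehicle against wild type vehicle, asks how CA1 differs in this heart failure model. No member passed. miR-34a-5p averaged 33.7 ± 19.0 CPM in transgenic vehicle and 23.004 ± 10.5 CPM in wild type vehicle (mean ± SD, n = 7 and 9), and 4 of 7 transgenic libraries exceeded the mean of wild type, with a log2 difference of 0.50 (SE 0.41). miR-34c-5p averaged 79.2 ± 42.6 CPM in transgenic vehicle and 56.3 ± 26.3 CPM in wild type vehicle, and 5 of 7 exceeded the mean of wild type, with a log2 difference of 0.47 (SE 0.29). For miR-34b-5p the log2 difference was 0.33 (SE 0.26), for miR-34c-3p 0.22 (SE 0.41) and for miR-34b-3p 0.12 (SE 0.29). The edgeR quasi-likelihood adjusted p was 0.98 for each of the 5.

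In that comparison edgeR called 0 of 605 miRNAs (0%), with 13 at an unadjusted p under 0.05. DESeq2 and limma voom also called 0, with 18 and 7. All 5 tested members had a positive log2 difference, with a median of 0.33, against 54.4% positive and a median of 0.03 among all 605. The family was chosen for lower values with Vorinostat against these same transgenic vehicle libraries, which favours a positive sign here, so the count is a description. Without wild type vehicle replicate 1 the members were positive in 5 of 5 as well (median 0.31), against 48% of all 606. Without transgenic vehicle replicate 9 the log2 difference was 0.20 for miR-34c-5p, 0.11 for miR-34b-5p and -0.09 for miR-34c-3p, and without transgenic vehicle replicate 6 it was 0.25 for miR-34a-5p. The size of these differences thus rested on single transgenic libraries. miR-449a-5p was below the filter. In a fit without the filter, over 1389 miRNAs, its log2 difference was -0.10 (SE 0.72, edgeR adjusted p = 1).

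With Vorinostat against transgenic vehicle, the 5 tested members had lower values. miR-34b-3p averaged 4.43 ± 2.15 CPM with Vorinostat and 7.54 ± 1.95 CPM in transgenic vehicle (SD, n = 10 and 7), and 9 of 10 Vorinostat libraries lay below the transgenic vehicle mean. Its log2 difference was -0.75 (SE 0.28). For miR-34c-3p it was -0.79 (SE 0.40), for miR-34c-5p -0.51 (SE 0.28), for miR-34b-5p -0.40 (SE 0.25) and for miR-34a-5p -0.14 (SE 0.40). These values chose the family and are not evidence for it.

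edgeR called 0 of 605 miRNAs (0%) in this comparison, with 21 at an unadjusted p under 0.05, and DESeq2 and limma voom also called 0, with 26 and 16. The median of the 5 members was -0.51, against -0.01 over all tested miRNAs. Transgenic libraries with the same number deviated together in 7 of 7 pairs, and the choice to pair them rests on these same data. With the replicate number as a block in these pairs, edgeR called 5 of 567 miRNAs (0.882%), none of them a member. In that fit 147 of the 567 had an unadjusted p under 0.05, so low values were common among all miRNAs. The log2 difference with the block was -0.76 (SE 0.21) for miR-34b-3p, -0.72 (SE 0.43) for miR-34c-3p and -0.39 (SE 0.17) for miR-34c-5p. It was -0.30 (SE 0.19) for miR-34b-5p and -0.24 (SE 0.21) for miR-34a-5p. These values too are a description, since this comparison led to the choice of the family.

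Pair by pair, the Vorinostat library was the lower in 7 of 7 pairs for miR-34b-3p, with differences from -1.05 to -0.12 on the log2(CPM + 1) scale. It was the lower in 6 of 7 for miR-34c-5p and for miR-34a-5p, in 5 of 7 for miR-34c-3p and in 4 of 7 for miR-34b-5p. How many of all miRNAs were lower in each pair was not counted. The pair of number 9, whose vehicle library was the highest for miR-34c-5p, weighed on the unit, and without that vehicle library the log2 difference was -0.28 for miR-34c-5p and -0.22 for miR-34b-5p. For miR-34a-5p it was 0.05 without transgenic vehicle replicate 6.

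Vorinostat against wild type vehicle shares libraries with both comparisons above. The log2 differences were 0.37 (SE 0.38) for miR-34a-5p, -0.03 (SE 0.27) for miR-34c-5p, -0.06 (SE 0.24) for miR-34b-5p, -0.57 (SE 0.39) for miR-34c-3p and -0.63 (SE 0.27) for miR-34b-3p. With 1 library left out, miR-34c-3p had -0.31 without wild type vehicle replicate 2 and miR-34a-5p had 0.22 without wild type vehicle replicate 1. In a fit without the filter, miR-449a-5p had -0.33 (SE 0.67), and -0.23 (SE 0.70) with Vorinostat against transgenic vehicle. edgeR called 0 of 605 (0%), with 19 at an unadjusted p under 0.05, and DESeq2 and limma voom called 0, with 29 and 23. For miR-34b-3p, 4 of 10 Vorinostat libraries lay below the lowest wild type library.

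The other miRNAs linked to p53 were taken from a list of 10, of which 9 were in the table and tested. In the genotype comparison 9 of 9 were positive with a median log2 difference of 0.30, against 54.4% and 0.03 among all 605. The 9 differences ran from 0.01 to 0.60. The list was chosen with earlier results of these data known, and whether its entries vary independently was not tested, so the count is a description. Without wild type vehicle replicate 1, 8 of 9 were positive with a median of 0.18, against 48% and -0.01 among all 606. None of the 9 passed. With Vorinostat against transgenic vehicle 4 were higher and 5 lower, with a median of -0.16, and none passed. Of all 605 tested miRNAs, 50.7% were lower there. The most abundant were miR-143-3p, which is known from smooth muscle, and miR-22-3p. miR-143-3p averaged 3214 ± 1048 CPM in transgenic vehicle and 3153 ± 1571 CPM in wild type vehicle, and miR-22-3p averaged 1124 ± 158 CPM in transgenic vehicle and 1114 ± 253 CPM in wild type vehicle (mean ± SD, n = 7 and 9).

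The authors' deposited normalized values gave another picture. Tested with limma, 366 of 674 miRNAs (54.3%) passed between transgenic vehicle and wild type vehicle, 360 (53.4%) between Vorinostat and transgenic vehicle, and 6 (0.89%) between Vorinostat and wild type vehicle. In the genotype comparison miR-34a-5p stood 1.58 log2 units higher in transgenic vehicle (SE 0.38, limma adjusted p = 0.00334) and miR-449a-5p 0.76 higher (SE 0.16, limma adjusted p = 0.00227; -0.10 from counts without the filter), while miR-34b-3p (0.21), miR-34c-5p (0.20), miR-34b-5p (0.08) and miR-34c-3p (-0.05) did not pass. The median over all 674 was 0.19. Without wild type vehicle replicate 1 the differences were 1.30 for miR-34a-5p and 0.70 for miR-449a-5p, and both still passed. The 2 of 6 members that passed stand against 54.3% of all miRNAs, so nothing particular to the family is read from them.

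On the authors' values the comparison of Vorinostat with transgenic vehicle, a description for the members, gave -1.43 for miR-34a-5p, -0.88 for miR-34b-3p, -0.46 for miR-449a-5p, -0.43 for miR-34c-5p, -0.37 for miR-34c-3p and -0.26 for miR-34b-5p, with a median of -0.24 over all 674. Between Vorinostat and wild type vehicle, likewise a description, miR-34b-3p stood at -0.67 and was 1 of the 6 miRNAs past the threshold, while the others were 0.15 for miR-34a-5p, -0.18 for miR-34b-5p, -0.41 for miR-34c-3p, -0.23 for miR-34c-5p and 0.30 for miR-449a-5p. There 16 miRNAs (2.37%) passed without wild type vehicle replicate 1, among them miR-34b-3p (-0.76) and miR-34c-3p (-0.54). For miR-34a-5p the authors' values were 6.51 ± 0.626 (5.64 to 7.55) in transgenic vehicle and 4.93 ± 0.975 (2.69 to 5.81) in wild type vehicle (SD, n = 7 and 9). In counts the same libraries lay at 14.5 to 65.2 CPM in transgenic vehicle and 2.08 to 35.4 CPM in wild type vehicle.

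**Figure D4:**
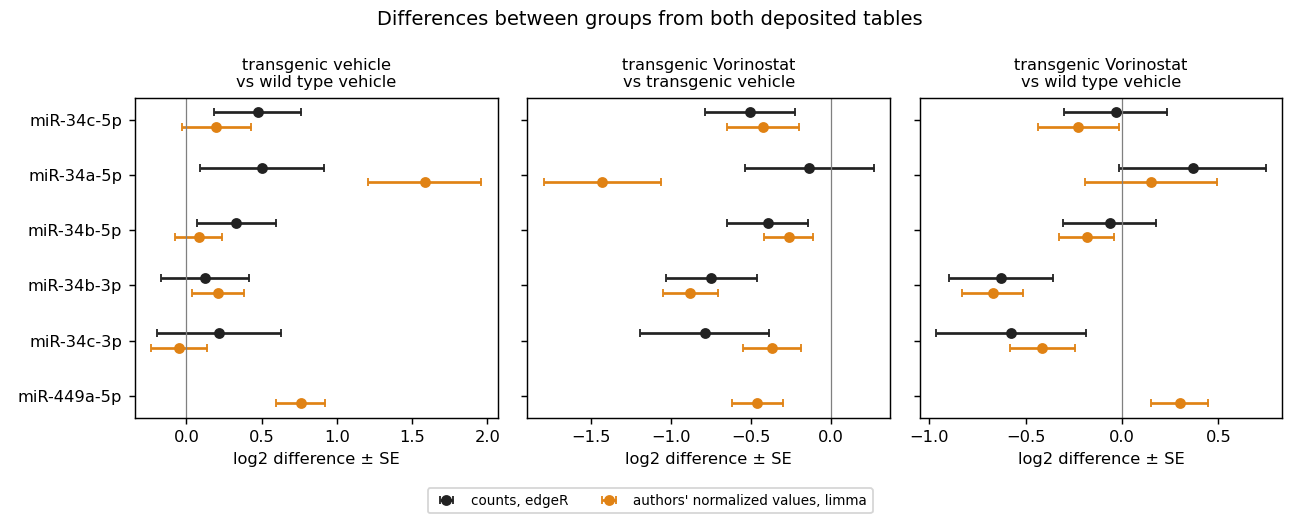
Log2 difference ± SE of each member in the 3 comparisons, from counts with edgeR (black) and from the authors' normalized values with limma (orange). The SE for edgeR is derived from the F statistic of its test. The error bars of both overlap for each arm of miR-34b and miR-34c, while for miR-34a-5p the authors' values give 1.58 against 0.50 in transgenic vehicle vs wild type vehicle and -1.43 against -0.14 in Vorinostat vs transgenic vehicle. The counts of miR-449a-5p are not plotted because it was below the filter.

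The scarce miR-449a-5p shows how far the deposited tables can part. Of the 4 libraries with 0 reads, transgenic Vorinostat replicate 10 was listed at 1.55, transgenic vehicle replicate 10 at 2.02, and wild type vehicle replicates 1 and 2 at 0.930 and 0.921. Wild type vehicle replicate 5, with 21 reads and 2.23 CPM, was listed at 1.95, below the transgenic vehicle library without a read. The authors' values also put miR-34b-3p (mean 5.93) above miR-34b-5p (mean 4.56), the opposite of their order in counts in all 26 libraries. The sources used here do not say how these values were made.

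**Figure D5:**
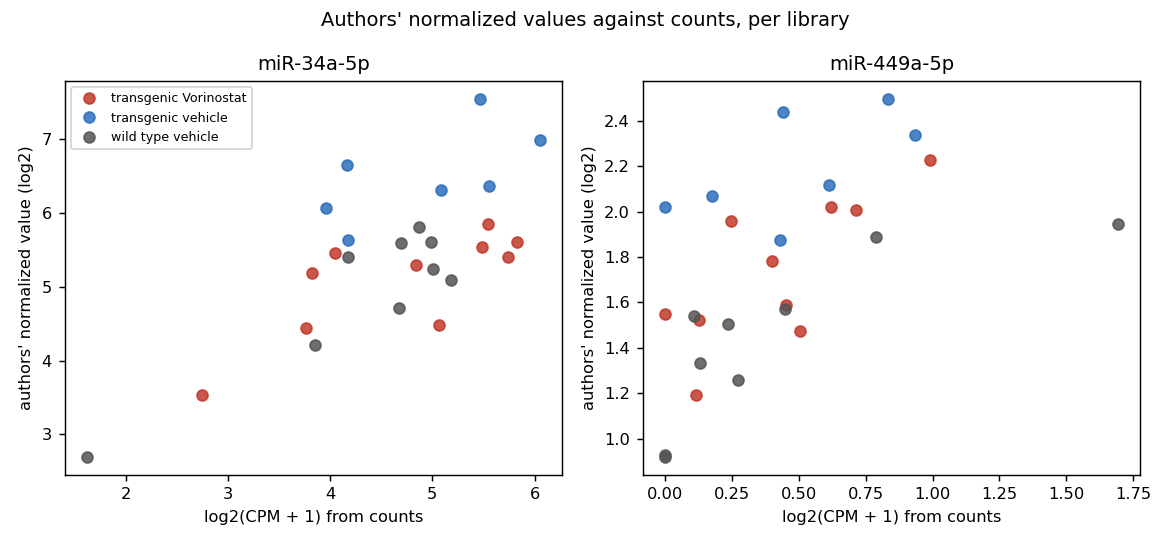
The authors' normalized value (log2, y axis) against log2(CPM + 1) from the deposited counts (x axis) for miR-34a-5p (left) and miR-449a-5p (right), 1 point per library. For miR-34a-5p the transgenic vehicle libraries span 5.64 to 7.55 on the authors' scale and those of wild type vehicle 2.69 to 5.81. The libraries with 0 reads of miR-449a-5p, at the left edge, are spread between 0.921 and 2.02.

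In the authors' deposited module table all 6 members were assigned to the turquoise module, which holds 404 of 674 miRNAs. For miR-34a-5p the turquoise membership in that authors' deposited table was 0.923. For the main arms of the unit, the authors' deposited memberships were higher in another module, brown, at 0.850 against 0.729 in turquoise for miR-34c-5p and 0.695 against 0.518 for miR-34b-5p. miR-34c-3p was likewise higher in brown, at 0.597 against 0.407, in the authors' deposited table. Of the 674 miRNAs, 100 (14.8%) were assigned to a module other than that of their highest membership there.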

How the data were processed

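Small RNA from 26 CA1 libraries was sequenced as single reads of 50 bp after TruSeq small RNA preparation, per the labels' protocols. FastQC 0.11.5 and mm10 appear in the submitters' processing notes. No source used here names the aligner, the miRNA annotation or how reads were counted. The deposited files hold the authors' raw counts for each mature miRNA, a table of normalized values on a log2 scale for 674 miRNAs, and membership scores in 5 modules, per the file headers.

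Groups came from the genotype and agent labels, lanes from the column names, and 0 columns were left unmapped. The members and lists were chosen with earlier results of these data known. Counts were tested with edgeR 4.0.16 in R 4.3.3 (quasi-likelihood, TMM factors, filterByExpr at its minimum count, 10, and total, 15, Benjamini-Hochberg threshold 0.05 over all 605 tested miRNAs). One model held the 3 groups without covariates. The SE given with edgeR was derived from its test, as the absolute log2 difference divided by the square root of the F statistic. Alternatives used DESeq2 1.42.0 and limma 3.58.1. The fitting step was tested on simulated data. Correlations used log2(CPM + 1) relative to group means with 100000 permutations within groups, in numpy 2.4.6 and scipy 1.17.1. Those permutations did not keep same-numbered libraries together. Ratios used reads plus 1.

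Named miRNAs were the 6 members, for miR-34a-5p and miR-34c-5p the 5 most correlated others, and the 2 most abundant of each list. The labels give replicate numbers but do not say what they mark. The deviations of same-numbered transgenic libraries correlated in 7 of 7 pairs (0.257 to 0.674), so these were treated as pairs. Against wild type vehicle, 4 of 6 and 6 of 9 pairs passed 0.1, so those numbers were not. The choice of pairs thus rests on these same data, and libraries of different number were not compared. Apart from number 5, both transgenic libraries of a pair shared a lane, and the part of the lane was not tested. Total counts were 0.585 to 24.8 M (1e+06 counts) per library. Intervals and limits of a count of 0 (3 counts) cover counting error only. Positions are from GENCODE on GRCm38 and sequences from RefSeq on GRCm38.p6.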

Additional observations from a re-analysis of the deposited data

Results flagged for a closer look

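Of 30 sets of member levels and ratios, each within 1 group of libraries, 2 held a value far from the others by Dixon's criterion, where chance gives about 1 in 20. The first was miR-449a-5p in wild type vehicle replicate 5, at 2.23 CPM from 21 reads, against at most 0.728 CPM in the other wild type libraries. That library was also 1 of the 3 in which miR-34a-5p exceeded miR-34c-5p. The second was the log2 ratio of miR-34c-5p to miR-34b-5p in wild type vehicle replicate 1, at 0.515 from 9 and 6 reads, in the library of 0.585 M (1e+06) counts. The part of its depth in that ratio was not tested.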

How the results depend on the processing

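Each count of called miRNAs was 0 under the other scalings, filters, tools, lanes and left-out libraries, apart from the replicate block in the 7 transgenic pairs, which called 5 with Vorinostat, and the authors' normalized values. Those gave 366, 360 and 6 calls (transgenic vehicle vs wild type vehicle, Vorinostat vs transgenic vehicle, Vorinostat vs wild type vehicle), and 324, 407 and 16 without wild type vehicle replicate 1. The block over all libraries called 0 in each comparison. Of the member differences from counts, 558 alternatives kept their direction and side of the threshold and 11 reversed. The cause of the reversals was not tested. Same-numbered wild type and transgenic libraries did not all deviate together, so no pairing was assumed between them.

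For miR-34c-3p the genotype difference was -0.0342 in lane L001, -0.0478 on the authors' values, -0.17 on these without wild type vehicle replicate 1, and -0.0858 to 0.479 with 1 library left out. With Vorinostat against transgenic vehicle, miR-34a-5p ran from -0.327 to 0.0539 with 1 library left out. For Vorinostat against wild type vehicle, lane L002 gave -0.0042 for miR-34a-5p, 0.0946 for miR-34b-5p, 0.183 for miR-34c-3p and 0.0461 for miR-34c-5p. For miR-34c-5p limma voom gave 0.0451 and leaving out 1 library -0.164 to 0.0401 (miR-34c-3p -0.83 to -0.31, miR-34a-5p 0.22 to 0.49), and for miR-34a-5p the authors' values without wild type vehicle replicate 1 gave -0.13.

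Of the 10 member pairs, 0 passed in L001 and 1 in L001 without wild type vehicle replicate 1. With the 2 libraries farthest from the median of miR-34a-5p left out (wild type vehicle replicate 1 and Vorinostat replicate 8), miR-34a-5p had an r of -0.0295 with miR-34b-3p, -0.044 with miR-34b-5p, -0.177 with miR-34c-3p, -0.22 with miR-34c-5p and -0.41 with the neuron sum. Without the same 2 libraries the first component had -0.127 with miR-34c-3p and -0.151 with miR-34c-5p, whereas without the 2 libraries farthest from each of these members' own medians it had 0.418 and 0.121. With only wild type vehicle replicate 1 left out, r was 0.201, 0.0698, -0.202, -0.0547 and -0.390 for miR-34a-5p, and -0.160 and 0.00254 for the first component. With a pseudocount of 0.1, 4 pairs passed, since miR-34b-5p with miR-34c-3p had 0.419. In L001 without wild type vehicle replicate 1, r was -0.622 for miR-34a-5p with miR-34c-3p, -0.136 for both 3p arms, -0.16 for miR-34a-5p and -0.415 for miR-34c-5p with the neuron sum, and -0.557 for miR-34c-3p with the first component. In L002 miR-34a-5p had -0.0534 with miR-34b-5p, -0.0768 with miR-34c-3p, -0.156 with miR-34c-5p and -0.184 with the neuron sum, and the first component had -0.0218 with miR-34b-5p, -0.0849 with miR-34c-3p and -0.156 with miR-34c-5p. With library totals in place of TMM factors, 1 of 10 marker relations passed (miR-34a-5p with the neuron sum, 0.66) and miR-34c-5p had 0.0754 with the choroid plexus and ependyma sum. With the first component, 0 of 5 passed in L001, with or without wild type vehicle replicate 1.

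The ratio of miR-34c-5p to miR-34a-5p differed by 0.57 in L002 and by -0.38 to 0.29 with 1 library left out, and that of the miR-34b arms by -0.00073 in L001 and by -0.060 to 0.16. For the miR-34c arms it ran from 0.20 to 0.58 with 1 library left out. Depth limits the scarce members most, with 333 reads of miR-34c-3p and 133 of miR-449a-5p in all.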
